A study of Mus musculus with 4 samples.

Results

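A set of 9 genes of adrenergic signalling was followed in pressure-overloaded mouse hearts, 4 receptors (Adrb1, Adrb3, Adra1a and Adra1b), 2 receptor kinases (Grk2 and Grk5), 2 adenylyl cyclases (Adcy5 and Adcy6) and 1 arrestin (Arrb1). They were found on the array through the RefSeq or Ensembl transcript that each probe is named by, which gave 14 probes for the 9 genes, out of 55681 probes other than controls and 21657 genes that such a transcript names. Whole hearts of male C57BL/6J mice were taken 2 or 8 weeks after sham surgery or after transverse aortic constriction (TAC), which narrows the aorta and makes the left ventricle pump against a higher pressure. The labels give an age of 10 weeks for both 2-week groups and of 16 weeks for both 8-week groups, while the methods state another age at surgery, so the ages are uncertain. No further allele or drug is named for any group. Each of the 4 conditions was 1 single-colour Agilent array hybridised with RNA mixed from 4 to 6 mice. The weeks were picked to catch the heart first while it thickens and later as it fails.

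Noradrenaline from sympathetic nerves and adrenaline from the adrenal medulla drive the heart through these receptors. The beta1 receptor couples to the stimulatory G protein and adenylyl cyclase, which makes cyclic AMP, and cyclic AMP activates protein kinase A, so that the heart beats faster and harder. The alpha1 receptors couple to Gq and phospholipase C instead. An occupied receptor is phosphorylated by G protein-coupled receptor kinases and then bound by an arrestin, which uncouples it, and a failing heart is known for a blunted response to catecholamines.

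Because the array has no second pool for any condition, no difference between conditions could be tested, and a p-value is given nowhere. In its place, a gene was called higher or lower where TAC and sham of the same week differed by over 1.5-fold and the probe was well above background on both arrays. Levels are the background-subtracted signal divided by that array's 75th percentile, and log2 changes are TAC minus sham of these levels. Each member probe had 1 spot per array. 2 measures of error were available from the arrays. Between spots of one probe on one array, log2 ratios had an SD of 0.289 for probes below 0.25 of the 75th percentile, 0.157 from there up to the percentile, and 0.0944 above it. Between the 2 sham pools, 6 weeks apart in age, the log2 difference had an SD over genes of 0.412, 0.277 and 0.155 in the same 3 ranges. The 75th percentile of signal lay between 206 and 248 on the 4 arrays, and 54.7% to 58.5% of probes were well above background. The heart's own markers fitted the label: 9 of 9 cardiomyocyte genes were well above background on all 4 arrays. The surgery was visible in 5 of 5 genes known to rise in hypertrophy (Nppa, Nppb, Myh7, Acta1 and Ankrd1), with log2 changes of 1.03 to 3.09 at 2 weeks and 1.94 to 3.69 at 8 weeks.

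Promoter sequence is shown for the beta1 receptor and for Grk5, the only members above the 75th percentile that were called at 8 weeks, one lower and the other higher in the TAC heart. Of the 9 genes, 4 (Adrb1, Adra1b, Adcy5 and Grk5) have a promoter window of 300 bases in the RefSeq table of GRCm38.p6, with 5 windows in all. Capitals mark matches, on either strand, to the cyclic AMP response element TGACGTCA, its core site TGACG, the GC box GGGCGG and the TATA box TATAAA. The core site is part of the full element, and the GC box of Adrb1 was matched on the opposite strand, so that its complement CCGCCC is printed.
Adrb1, chr19:56721867-56722166, plus strand: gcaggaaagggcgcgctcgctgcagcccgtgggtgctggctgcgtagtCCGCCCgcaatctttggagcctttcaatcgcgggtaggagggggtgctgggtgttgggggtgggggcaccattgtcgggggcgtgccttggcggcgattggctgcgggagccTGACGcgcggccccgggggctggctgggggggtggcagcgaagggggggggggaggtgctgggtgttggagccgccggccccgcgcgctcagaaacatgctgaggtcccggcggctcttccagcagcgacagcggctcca
Grk5, chr19:60889499-60889798, plus strand: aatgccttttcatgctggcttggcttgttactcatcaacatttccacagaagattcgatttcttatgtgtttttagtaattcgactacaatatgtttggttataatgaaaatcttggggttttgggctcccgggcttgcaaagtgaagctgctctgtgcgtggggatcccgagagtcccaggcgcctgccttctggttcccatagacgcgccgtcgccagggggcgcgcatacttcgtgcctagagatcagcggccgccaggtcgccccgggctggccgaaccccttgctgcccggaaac
The Adrb1 window held 1 core site at -90 and 1 GC box at -202 from the annotated start, and 72.3% of its bases were G or C. The Grk5 window held none of the 4 motifs and was 54.3% G or C. GC boxes were also present for Adcy5 and Adra1b, while the full element and the TATA box were found in 0 of the 5 windows. Over all 32544 windows of the table, 20.9% held the core site, 35.9% the GC box, 13.6% the TATA box and 1.8% the full element. A match in these letters is a description of the window and no evidence of binding.

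At 8 weeks 3 of the 4 receptor genes were lower and Grk5 was higher in the TAC heart. Adrb1, Adrb3 and Adra1a were called lower, 3 of the 9 genes, where 3.98% of the 14581 measured genes were called lower in the same comparison. Grk5 was called higher, 1 of the 9, where 5.36% of all measured genes were. At 2 weeks 0 of the 9 genes were called in either direction, where 4.17% of 14419 genes were called higher and 2.55% lower. All 9 genes were well above background on all 4 arrays through their brightest probe. The median log2 change of the 9 genes was -0.22 at 2 weeks and -0.34 at 8 weeks, and that of all measured genes was -0.01 at both. It was closer to 0 at 2 weeks under normexp (-0.11), the mean over probes (-0.14) and the dimmest probe (-0.10), and at 8 weeks without normalization (-0.17) and with the mean over probes or the dimmest probe (-0.12 for each). At a stricter 2-fold threshold 1 of the 9 genes was lower at 8 weeks, Adrb3, and 0 were higher, where 0.878% and 1.81% of all measured genes were, and 0 of the 9 passed at 2 weeks, where 0.902% of all genes were higher and 0.548% lower. Values below are those of a gene's brightest probe unless another is named.

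**Figure D1:**
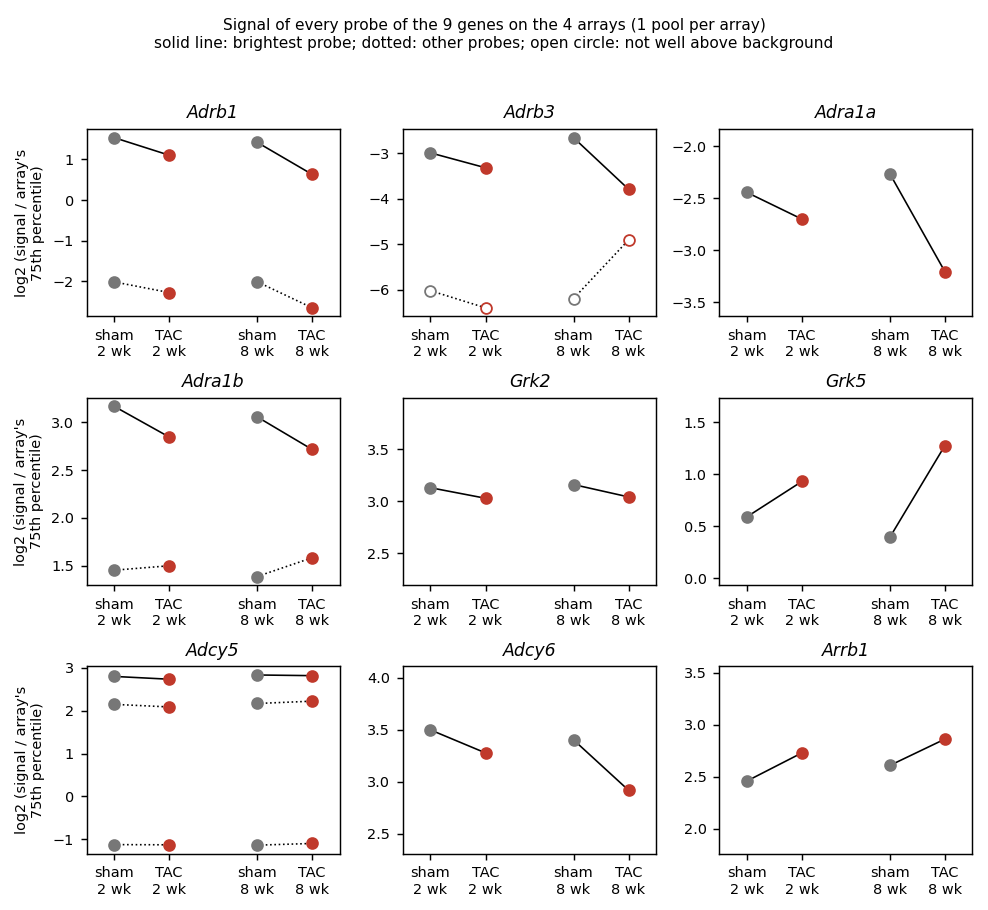
Level of every probe of the 9 genes on the 4 arrays, as log2 of the signal over the array's 75th percentile, with sham in grey and TAC in red. The solid line joins the brightest probe and dotted lines the other probes, and open circles, all of them of the second Adrb3 probe, were not well above background. Each point is 1 pool, and the panels have different vertical ranges.

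Adrb1 (NM_007419) encodes the beta1 receptor, the main beta receptor of cardiomyocytes. Its level was 2.90 in the 2-week sham heart and 2.15 in the 2-week TAC heart, and 2.68 in the 8-week sham heart and 1.55 in the 8-week TAC heart. Both TAC arrays lay below both sham arrays, and the 8-week TAC heart was the lowest of the 4. The gene was 1.35-fold lower at 2 weeks (log2 change -0.43) and 1.73-fold lower at 8 weeks (log2 change -0.79). The sham pools differed by -0.11, no more than the sham SD for such bright probes, so these 2 neighbours in the order cannot be separated. A second, dimmer probe had levels of 0.248 and 0.207 at 2 weeks, then 0.249 and 0.159 at 8 weeks, sham before TAC. It kept the order of sham above TAC, with a log2 change of -0.26 at 2 weeks and of -0.64 at 8 weeks, the latter 1.56-fold lower.

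Adrb3 (NM_013462) encodes the beta3 receptor, which is best known for driving fat breakdown in adipocytes and which in the heart couples to nitric oxide and opposes contraction. Its level was 0.126 (sham) and 0.100 (TAC) at 2 weeks, and 0.158 (sham) and 0.0723 (TAC) at 8 weeks. The 8-week sham array was the highest and the 8-week TAC array the lowest. Adrb3 had the largest change of the 9 genes, 2.19-fold lower at 8 weeks (log2 change -1.13), against -0.33 at 2 weeks. It was also a dim probe: the sham pools themselves differed by 0.33, and the lowest level well above background was 0.0469 to 0.0600 on the 4 arrays. The second Adrb3 probe was not well above background on any array and gives no value. With a model-based background correction (normexp), which adds an offset of 50 to every signal, the change at 8 weeks shrank to -0.46, under the 1.5-fold threshold. The signals were 35.0 (sham) and 18.0 (TAC), so the offset shrinks their ratio by construction. The lost call is therefore no check on the change.

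Fat markers were examined beside Adrb3 because the gene is abundant in fat. Of 6 white fat markers, 4 (Adipoq, Lep, Plin1 and Cidec) were not well above background on any array. Of 6 brown fat markers, Ucp1 and Elovl3 were not well above background on any array, while Cidea, Cox7a1, Cox8b and Ppara, which heart muscle also expresses, were on all 4. The summed level of the brown fat list was 2030 and 1667 at 2 weeks, then 1909 and 1495 at 8 weeks, sham before TAC, and its median log2 change was -0.28 and -0.19, with 0 genes called. The part of these shifts in the Adrb3 values was not tested. The summed level of the white fat list was 0.530 and 0.355 at 2 weeks, then 0.416 and 0.368 at 8 weeks, sham before TAC, most of it from Retn and Cfd. Cfd was called lower at 2 weeks (log2 change -0.97) and had 0.18 at 8 weeks. Retn had -0.42 at 2 weeks and was called lower at 8 weeks (-0.68). Cfd was also called lower in the 8-week than in the 2-week sham heart (-0.60). The part of the white fat values in those of Adrb3 was not tested.

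Adra1a (NM_013461) encodes the alpha1A receptor, which signals through Gq in cardiomyocytes. Its level was 0.184 (sham) and 0.154 (TAC) at 2 weeks, and 0.208 (sham) and 0.108 (TAC) at 8 weeks. The TAC heart at 8 weeks was again the lowest of the 4 and both sham hearts were the highest. The log2 change was -0.26 at 2 weeks and -0.94 at 8 weeks, when the gene was 1.92-fold lower. The sham pools differed by 0.18, within the sham SD for dim probes. As with Adrb3, normexp correction brought the 8-week change under the threshold, to -0.47. Here too the offset of 50 exceeded the signals, 45.9 (sham) and 26.9 (TAC), and shrinks their ratio by construction.

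Adra1b (NM_007416), the alpha1B receptor, gave no single direction. The brightest probe had levels of 8.97 and 7.18 at 2 weeks, then 8.31 and 6.56 at 8 weeks, sham before TAC, with log2 changes of -0.32 and -0.34. The second probe of the same transcript had levels of 2.74 and 2.83, then of 2.62 and 3.0, with log2 changes of 0.05 and 0.20. Both TAC arrays were the lowest on the first probe and the highest on the second, and neither probe passed 1.5-fold.

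**Figure D2:**
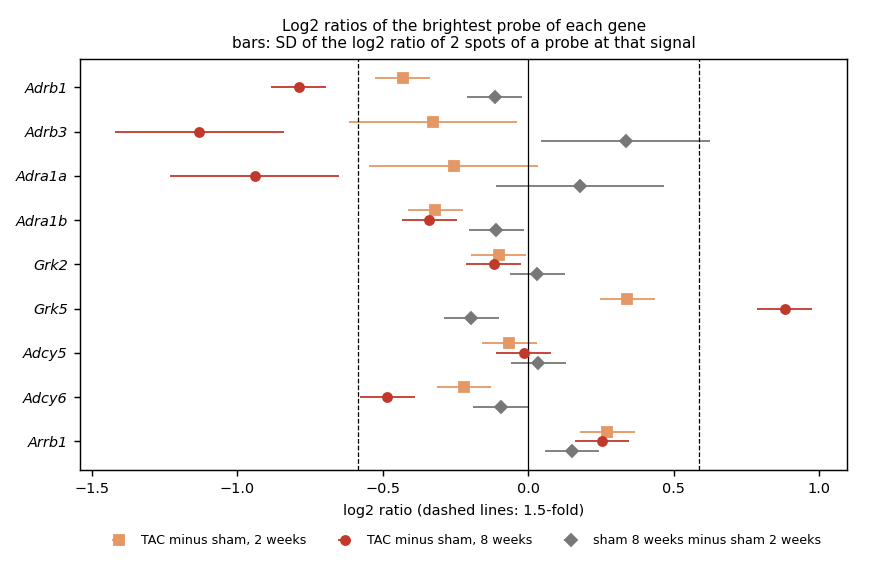
Log2 ratios of the brightest probe of the 9 genes, for TAC over sham at 2 weeks (squares), TAC over sham at 8 weeks (circles) and the 8-week over the 2-week sham heart (diamonds). Bars are ± the SD between spots of one probe at that signal, on the log2 scale, and hold no biological spread. At 8 weeks Adrb3, Adra1a and Adrb1 lie left of the lower dashed line (1.5-fold) at -1.13, -0.94 and -0.79, and Grk5 lies right of the upper one at 0.88.

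The receptor kinases differed from each other. Grk5 (NM_018869) phosphorylates occupied receptors at the membrane and is also known to enter the nucleus of cardiomyocytes, where it can act on a histone deacetylase. Its level was 1.5 (sham) and 1.91 (TAC) at 2 weeks, and 1.31 (sham) and 2.42 (TAC) at 8 weeks. Both TAC arrays were above both sham arrays, and the 8-week TAC heart was the highest. Grk5 was 1.27-fold higher at 2 weeks (log2 change 0.34) and 1.84-fold higher at 8 weeks (log2 change 0.88), against -0.20 between the sham pools. Grk2 (NM_130863, also called Adrbk1 or beta-adrenergic receptor kinase 1) is the kinase most often studied in heart failure. Its level was 8.76 and 8.17 at 2 weeks, then 8.95 and 8.24 at 8 weeks, sham before TAC. The 4 arrays lay close together, and the log2 changes of -0.10 and -0.12 were within the sham SD of 0.155 for bright probes. With 1 array per condition this does not show that Grk2 mRNA was the same.

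Arrb1 (NM_177231) encodes beta-arrestin 1, which binds the phosphorylated receptor. Its level was 5.50 (sham) and 6.64 (TAC) at 2 weeks, and 6.10 (sham) and 7.28 (TAC) at 8 weeks. The TAC heart was the higher one in each pair, by 0.27 and 0.25 on the log2 scale, below the threshold both times. The sham pools differed by 0.15.

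Adcy5 and Adcy6 are the 2 main adenylyl cyclases of cardiomyocytes. Adcy6 (NM_007405) had levels of 11.3 and 9.70 at 2 weeks, then 10.6 and 7.57 at 8 weeks, sham before TAC. Both TAC arrays were below both sham arrays, but the 8-week difference, 1.40-fold lower (log2 change -0.48), fell short of the threshold, and the 2-week log2 change was -0.22. Adcy5 (NM_001012765) had levels of 6.97, 6.66, 7.14 and 7.06 in the 2-week sham, 2-week TAC, 8-week sham and 8-week TAC hearts. No order by treatment was visible, and its 3 probes differed between TAC and sham by -0.07, -0.06 and -0.01 (log2) in the 2-week pair, then by -0.02, 0.05 and 0.04 in the 8-week pair.

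Each pair of arrays has its own sham pool, so the weeks can be set side by side. All 9 genes had the same sign of change at both weeks by their brightest probe, 7 lower and 2 higher, and among 14247 genes measured on all 4 arrays 69.9% did. The sign of Adra1b, Grk2 and Adcy5 at 8 weeks turned under at least 1 other processing setting, and that of Adra1b at 2 weeks too. For 7 of the 9 the change was larger at 8 weeks, as it was for 56.9% of all genes. Among the 7, the 8-week minus the 2-week change was only -0.02 for Adra1b and for Grk2. That is less than the SD of 0.0944 between spots of bright probes. Set directly against the 2-week TAC heart, the 8-week TAC heart had log2 differences of -0.47 for Adrb1, -0.47 for Adrb3, -0.51 for Adra1a, -0.36 for Adcy6 and 0.35 for Grk5. None of the 9 passed 1.5-fold in that comparison, where 2.84% of all measured genes were called higher and 2.87% lower, nor between the sham hearts, where 1.62% were higher and 1.21% lower.

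**Figure D3:**
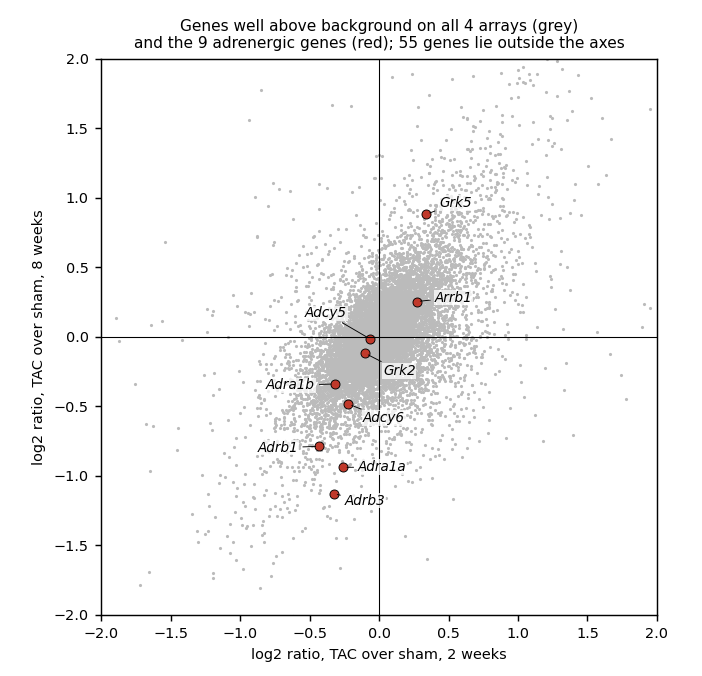
Log2 ratio of TAC over sham at 2 weeks (horizontal) and at 8 weeks (vertical) for the 14247 genes well above background on all 4 arrays, in grey, and for the 9 adrenergic genes, in red. Adrb1, Adrb3 and Adra1a lie at the lower left at the edge of the grey cloud and Grk5 in the upper right, while Adcy5 and Grk2 lie near the origin. A further 55 genes fall outside the axes.

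These are whole hearts, so fewer cells of a type and less RNA per cell cannot be told apart. Of the 9 cardiomyocyte markers, 0 were called at 2 weeks and 1, Ryr2, was called lower at 8 weeks (log2 change -0.63), with a median of -0.15 and -0.17. Of the 9, 2 had a log2 change above 0 at 2 weeks and 0 at 8 weeks, and their summed level was 10672 and 10002 at 2 weeks, then 10077 and 8945 at 8 weeks, sham before TAC. Of 8 fibroblast markers 5 (Col1a1, Col1a2, Col3a1, Lum and Postn) were called higher at both weeks, while Pdgfra, Dcn and Tcf21 were not called. All 8 had log2 changes above 0 at 2 weeks and 7 did at 8 weeks, when the lowest was -0.55. The summed level of the list was 208 and 287 at 2 weeks, then 232 and 339 at 8 weeks, sham before TAC. The 6 macrophage markers all had log2 changes above 0 at both weeks, of which Cd14 was called, and their summed level was 34.6 and 43.6, then 35.6 and 45.4. None of 6 endothelial markers was called at either week. The part of these shifts in the receptor and kinase values was not tested.

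A list of 88 further genes of the pathway was read in the same way, and 77 of them were well above background on all 4 arrays and 8 on none. At 2 weeks 3 of 77 measured genes were called higher and 5 lower, where 4.17% and 2.55% of all measured genes were. At 8 weeks 6 of 78 were called higher and 6 lower, where 5.36% and 3.98% of all measured genes were. Their median log2 change was 0.04 at 2 weeks and -0.01 at 8 weeks. The genes called at either week are named here, apart from results that are not reported.

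The other adrenergic receptors gave no call. Adra1d had log2 changes of 0.04 and -0.34, and the presynaptic and vascular alpha2 receptors Adra2b and Adra2c had 0.03 and -0.18, and -0.21 and -0.01. Adra2a was not well above background on any array.

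Among the other receptor kinases and arrestins, Grk4 stood out through 1 of its 3 probes. That probe read 0.188, 0.204 and 0.172 in the 2-week sham, 2-week TAC and 8-week sham hearts and 0.908 in the 8-week TAC heart, 5.28-fold above its sham (log2 change 2.40). The 8-week TAC array was high and the other 3 lay together. The other Grk4 probes, named by another transcript, gave no call: one had a log2 change of 0.44 in the 8-week pair, and the dimmer one was not well above background in the 8-week sham heart, which leaves a bound of at least 1.08-fold higher there. With the dimmest probe the Grk4 call was lost. Arrb2, Grk3 and Grk6 were not called at either week.

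Of the other adenylyl cyclases, Adcy7, a form abundant in blood and immune cells, was called higher at both weeks. Its level was 1.08 (sham) and 2.56 (TAC) at 2 weeks, and 1.31 (sham) and 3.41 (TAC) at 8 weeks. Both TAC hearts were above both sham hearts, by 2.37-fold at 2 weeks and 2.59-fold at 8 weeks. The macrophage values above stand beside this change, and their part in it was not tested. Adcy1, a calcium-stimulated form, was called lower at 2 weeks (log2 change -0.68) and had -0.23 at 8 weeks, and the call was lost under normexp.

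The G protein subunits gave 1 call in 17 measured genes. Gnai1, an inhibitory alpha subunit, was called lower at both weeks, with log2 changes of -0.75 and -0.59 on a dim probe. The 8-week call was lost under quantile normalization, array median centring, no normalization and normexp, and the 2-week call under normexp. Of 9 RGS proteins, which speed the switching off of G proteins, Rgs2, a regulator of Gq, was called lower at both weeks. Its level was 34.1 and 20.9 at 2 weeks, then 31.2 and 16.6 at 8 weeks, sham before TAC, so that both TAC hearts were below both sham hearts, by 1.63-fold and 1.88-fold. A second Rgs2 probe had log2 changes of -0.24 and -1.02, and the 2-week call was lost with either other probe choice. Rgs14 and Rgs16 were called higher at 2 weeks (log2 changes 0.75 and 0.64) and not at 8 weeks (0.49 and 0.07), and for Rgs14 the sham pools alone differed by 0.51. Both calls were lost under normexp.

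In the list of protein kinase A, its anchors and Epac, Akap7, which anchors the kinase near calcium channels and phospholamban, was called lower at 2 weeks by its brightest probe (log2 change -0.78), while its other probes had -0.47 and -0.17 and either other probe choice lost the call. Prkar1a, a regulatory subunit, was called higher at 8 weeks (log2 change 0.67, with 0.49 and 0.66 on its other probes). Of 11 Gq effectors, the protein kinases C Prkcb and Prkcd were called higher at 8 weeks (log2 changes 0.69 and 0.59), and for Prkcd the sham pools already differed by 0.55. The Prkcd call was lost under quantile normalization, normexp, the deposited table and both other probe choices, and the Prkcb call under normexp. Ppp1r1b, an inhibitor of protein phosphatase 1, was called lower at 8 weeks (log2 change -0.76), a call lost under normexp.

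**Figure D4:**
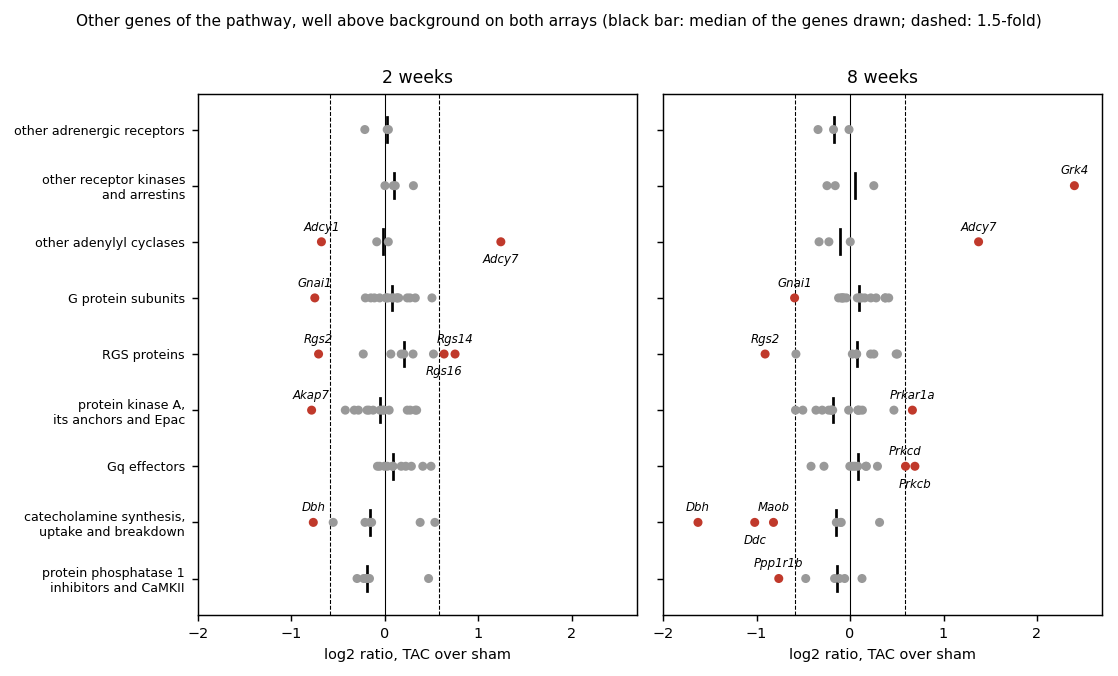
Log2 ratio of TAC over sham at 2 weeks (left) and at 8 weeks (right) for the other pathway genes that were well above background on both arrays of a pair, by list. Red points with names passed 1.5-fold (dashed lines), grey points did not, and black bars are medians of the genes drawn, which leave out genes that are not reported. Most genes lie between the dashed lines, and Dbh at -1.63 and Grk4 at 2.40 are the extremes at 8 weeks.

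Genes that make and break down catecholamines were among those called at 8 weeks. Dbh, dopamine beta-hydroxylase, turns dopamine into noradrenaline in sympathetic nerve endings. Its level was 5.45 (sham) and 3.21 (TAC) at 2 weeks, and 6.16 (sham) and 1.99 (TAC) at 8 weeks. Both TAC hearts were below both sham hearts, by 1.70-fold at 2 weeks and 3.09-fold at 8 weeks. Maob, a monoamine oxidase, was 1.77-fold lower at 8 weeks (log2 change -0.82) and had -0.55 at 2 weeks. Ddc, the decarboxylase that makes dopamine, had levels of 0.859 and 1.12 at 2 weeks, then 0.673 and 0.332 at 8 weeks, higher in TAC in the first pair and called lower in the second (log2 changes 0.38 and -1.02). A second, dim Ddc probe had 0.66 and -0.16, so that with the dimmest probe the 8-week call was lost and the gene was called higher at 2 weeks. Th, the first enzyme of the pathway, had log2 changes of -0.14 and -0.15, and the noradrenaline transporter Slc6a2 was not well above background.

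Other measured nerve and glia markers were also lower in the TAC hearts, each by less than Dbh. The changes of Th were within the sham SD of 0.155 for bright probes. Of 7 genes in that list 5 were measured, and 0 of the 5 had a log2 change above 0 at either week. Sox10, a glial transcription factor, had -0.43 at 2 weeks and -0.39 at 8 weeks. The summed level of the list was 10.1 and 7.03 at 2 weeks, then 10.9 and 5.74 at 8 weeks, sham before TAC, with Dbh itself and Th among its members. Their part in the Dbh values was not tested.

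Likeness of pattern was measured as the Euclidean distance between the 4 array values of 2 genes, each centred on its mean log2 level, over 4 arrays only. Adrb3, the member with the largest change at 8 weeks, was closest to Bmper (distance 0.141), Aldh1l2 (0.147) and Pglyrp3 (0.149) among 14246 other genes. Within the pathway list, Adrb1 and Adra1a were both closest to Ppp1r1b (0.0983 and 0.189), Adrb3 to Maob (0.273) and Grk5 to Prkcb (0.172). With 4 points such distances describe the arrays and carry no test.

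**Figure D5:**
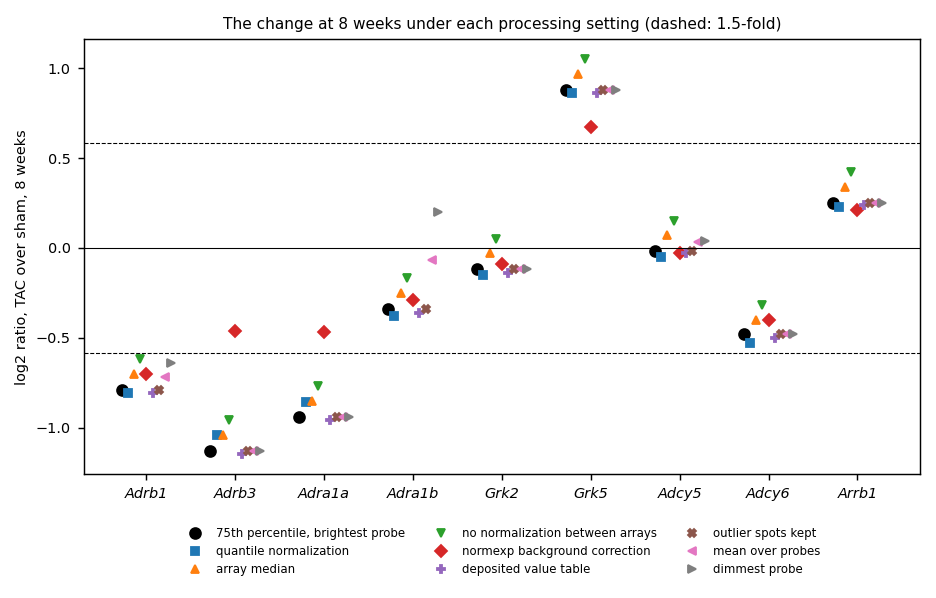
Log2 ratio of TAC over sham at 8 weeks for the 9 genes under 9 processing settings, the one used in the text as a black circle. Adrb1 stays below the lower dashed line (1.5-fold) and Grk5 above the upper one under all 9, whereas Adrb3 and Adra1a cross the lower line under normexp background correction, at -0.46 and -0.47. That correction adds an offset of 50 to every signal, which shrinks the changes of dim probes by construction. For genes with 1 usable probe, Grk5 among them, the other probe choices repeat the value used in the text.

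The 8-week calls of Adrb1 and Grk5 held under each of the 8 other settings that were drawn, with log2 changes of -0.81 to -0.62 for Adrb1 and of 0.67 to 1.05 for Grk5. Not all of these settings could have changed the calls. Grk5 has 1 probe, so the other probe choices repeat its value by construction. With 1 spot per probe, keeping outlier spots could hardly move either gene. Adrb3 ranged from -1.15 to -0.46 and Adra1a from -0.96 to -0.47. Adcy6 ranged from -0.53 to -0.32 and was not called under any of them.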

How the data were processed

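Whole-heart RNA of 4 conditions was hybridised to 4 single-colour Agilent SurePrint G3 Mouse arrays, all on one slide and in one scan. Per the file headers the deposited intensity is the background-subtracted signal of Agilent Feature Extraction 10.7.3.1 (the submitters' processing notes name 9.1). The deposited value table on a linear intensity scale was, by comparison with the scanner values, that signal times 1 constant per array. Here log2 signals were centred on each array's 75th percentile over probes other than controls, outlier spots were left out and spots of one probe were averaged. Symbols came from the RefSeq table and GENCODE, which matched 29358 probes, and a gene took its probe of highest mean signal. A call needed a difference over 1.5-fold and both arrays well above background. With 1 array per condition no test was made, and the number of arrays limits the precision. Named pathway genes are those called at either week, apart from results not reported here. The alternatives were other normalizations, normexp (limma 3.58.1) with offset 50 on the median spot signal, which replaced the mean signal, the deposited table, outlier spots kept, other probe choices, a 2-fold threshold and other filters. Python 3.11.15 and R 4.3.3 were used, and the steps were tested on simulated data. The simulated noise was the same at every signal level, so that test does not bear on the calls of dim probes. The members and lists were chosen with earlier results of these data known.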

Additional observations from a re-analysis of the deposited data

Results flagged for a closer look

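Among the 9 adrenergic genes and the 88 further pathway genes, Prkar2b and Ddc drew attention because the 2-week and 8-week TAC hearts moved in opposite directions from their own sham hearts. Prkar2b, a regulatory subunit of protein kinase A, had a log2 change of 0.27 at 2 weeks and of -0.51 at 8 weeks. Ddc had 0.38 at 2 weeks and -1.02 at 8 weeks. With 1 array per condition the difference between the weeks was not tested for either gene.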

How the results depend on the processing

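No paired analysis was possible because each condition is 1 array, and for the same reason no replicate could be left out. Each gene of the 9 was recomputed under 8 other settings, and 0 called values changed sign. At 2 weeks 67 of 72 values stayed within 0.162 of the log2 change used in the text, and at 8 weeks 58 of 72. That limit is the SD between spots over all signals, wider than the 0.0944 of bright probes. Some values could not move: the other probe choices repeat the value of a gene with 1 usable probe. With 1 spot per probe, keeping outlier spots could hardly move any gene. The counts are therefore no measure of stability. Without normalization between arrays the median of all genes at 8 weeks moved to 0.16, 9.38% of genes were called higher and 2.02% lower, the median of the 9 genes was -0.17 and that of the pathway list 0.16. Centring on the array median gave 7.18% higher and 2.73% lower at 8 weeks. The median of the 9 genes at 8 weeks was -0.12 both with the mean over probes and with the dimmest probe. Normexp correction left 1 of the 3 lower calls among the 9 genes at 8 weeks, Adrb1, and in the pathway list at 2 weeks 1 gene higher and 3 lower. It called 3.11% of all genes higher and 1.32% lower at 8 weeks, and 1.30% and 0.902% at 2 weeks. At 2-fold, 1.81% of all genes were higher and 0.878% lower at 8 weeks, and 0.902% and 0.548% at 2 weeks. Of the 9 genes 0 were then higher and 1, Adrb3, lower at 8 weeks, and in the pathway list 1 was higher and 0 lower at 2 weeks and 2 were higher and 2 lower at 8 weeks. The other settings at 1.5-fold gave 4 to 9 pathway genes higher and 4 to 8 lower at 8 weeks. In the pathway list at 2 weeks the dimmest probe gave 5 higher and 3 lower, the mean over probes 3 lower, and no filter on dim probes 5 higher. Without that filter 8.39% of all genes were higher and 5.05% lower at 2 weeks, and 7.42% and 8.74% at 8 weeks. Fewer passing genes at 2-fold follow from the threshold. Without normalization the 8-week changes keep the difference between the arrays' 75th percentiles, 221 (sham) and 248 (TAC), which moves every gene alike. The offset of 50 in normexp shrinks the changes of dim probes by construction, so a dim call lost under it is no check on that call. The cause of the other shifts was not tested. Adrb3 and Adra1a lay below 0.25 of the 75th percentile, where spots of one probe agreed least.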
